A study of Mus musculus with 8 samples.

Results

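The genes described here are 10 genes of immunoglobulin A (IgA) production and transport, namely Igha, Jchain, Pigr, Sdc1, Mzb1, Xbp1, Prdm1, Irf4, Eaf2 and Derl3. Their 20 probe sets were taken as those annotated to exactly 1 of these symbols, out of the 18194 genes that the array names by a single symbol. All 10 genes passed the filter on low intensity, as did 11988 genes in all. Of the 20 probe sets, 19 passed. The probe set that did not was the dimmer of the 2 for Irf4.

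IgA is the main antibody of the gut surface. In the follicles of Peyer's patches B cells switch from IgM to IgA, leave the patch and settle as plasma cells in the lamina propria, where they secrete IgA as dimers held together by the joining chain. Epithelial cells bind the dimer with the polymeric immunoglobulin receptor, carry it across and release it into the lumen with a fragment of that receptor. The change from a B cell to a plasma cell runs through Irf4, Prdm1 and Xbp1, and enlarges the endoplasmic reticulum in which antibody is folded.

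Messenger RNA was measured in Peyer's patches of 8 mice, each read on its own single-colour Affymetrix array. All were of the inbred strain C3H/Hej, in which Tlr4, the sensor of lipopolysaccharide, does not work, so controls and treated mice share that defect. Gavage began at 6 weeks of age and was repeated daily for 28 days. The series presents the treated animals as a model of allergy to ovalbumin (OVA), an egg white protein. OVA at 40 mg per kg body weight was given to 2 females (mice 2 and 12) and 4 males (mice 1, 5, 8 and 13). Normal saline alone was given to 1 female (mouse 7) and 1 male (mouse 8). The control group therefore holds 1 mouse of each sex, and precision is limited throughout by how few arrays there are. The labels number the mice and do not say whether they shared a litter or a cage. Male control 8 and male OVA 8 are separate samples.

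Intensities on these arrays ran from 1.86 to 14749, and the trimmed means of the arrays from 65.1 to 68.2. The labels name Peyer's patches as the tissue, but the text on RNA extraction speaks of a patient's brain cortex. Markers of epithelium were all measured (5 of 5), those of B cells in 4 of 5 cases and those of T cells in 3 of 5. Of the neuron markers 1 of 5 passed the filter, with a highest intensity of 36.0. The array of male OVA 13 stood apart in the 3 measured markers of exocrine pancreas. Cela1, Cpa1 and Prss2 read 1023, 1348 and 1445 there and at most 151, 66.6 and 68.4 on the other 7 arrays, so values are given below with and without it where it matters. A bulk array cannot tell fewer cells of a type from less RNA per cell.

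No probe set of any gene passed an adjusted p of 0.05 for OVA against control with limma, so 0 of 22518 were called (0%), and the smallest adjusted p was 0.210. None of the 10 genes is therefore called as changed, and what follows gives their values. At an unadjusted p under 0.05, 2 of the 10 genes stood out, Sdc1 on the lower side and Eaf2 on the higher side, against a background of 10.2% of all genes. That count was 1 without female control 7, male control 8 or female OVA 12. It rests on the brightest probe set of each gene. With a gene's probe sets averaged it was again 2, but the genes were Pigr and Eaf2 (unadjusted p = 0.0337 and 0.0295 by limma), and Sdc1 had 0.0658. The median log2 difference, OVA minus control, was 0.03 over the 10 genes, with 5 higher and 5 lower, and 0.02 over all genes. Without male control 8 it was -0.10 over the 10 genes, with 3 higher and 7 lower. In the limma fits here and below, only females carry the OVA comparison without male control 8. Only males carry it without female control 7.

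**Figure D1:**
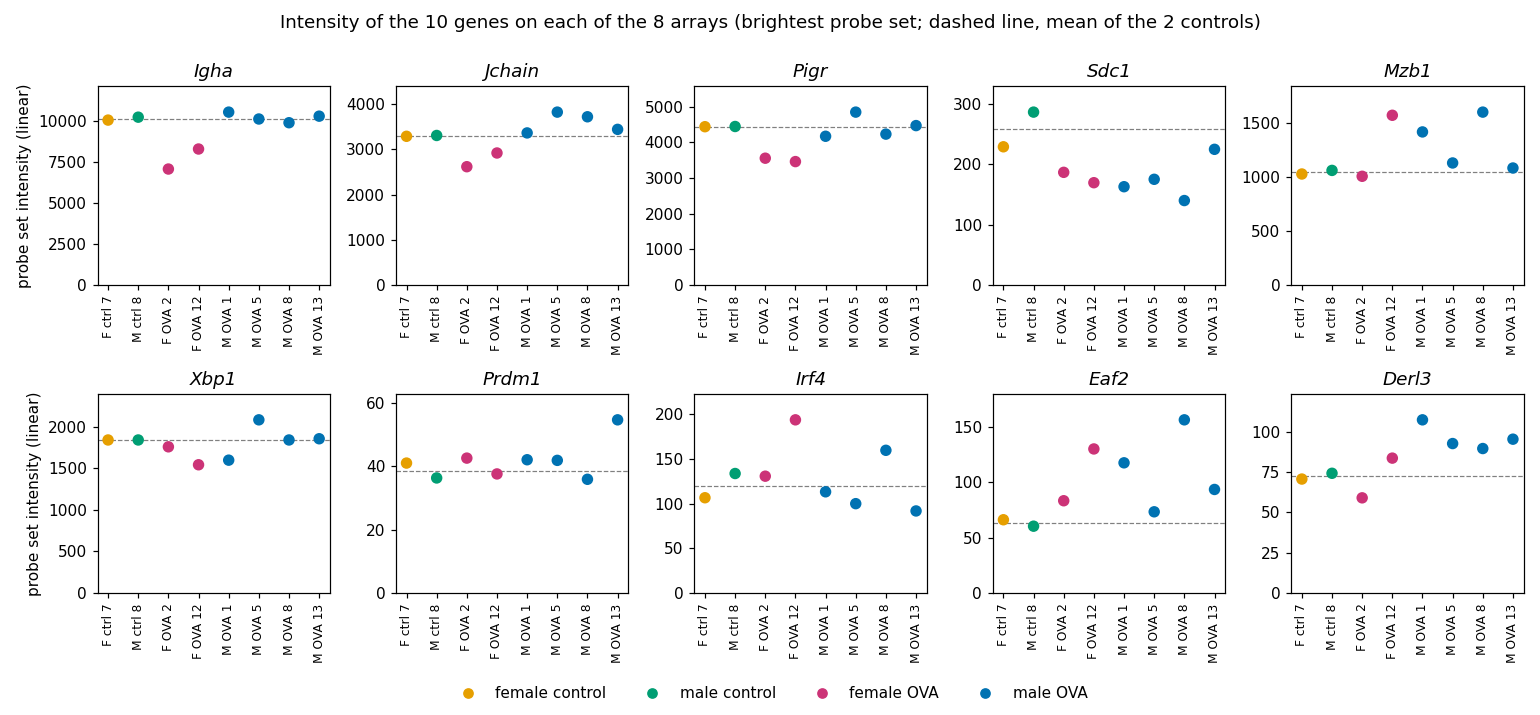
Deposited intensity of each of the 10 genes (brightest probe set, vertical axes) on each of the 8 arrays, grouped as female control, male control, female OVA and male OVA. Igha, Jchain and Pigr are lowest on the 2 female OVA arrays, Sdc1 is lower on all 6 OVA arrays than on both controls, and Eaf2 is higher on all 6.

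The sequences just upstream of 3 genes are shown because they hold a match to a motif searched for. They are the 250 bases before the annotated start, from RefSeq on GRCm38.p6, written 5′ to 3′ on the gene's strand. Promoters of 8 of the 10 genes were searched on both strands, as were 27025 promoters in all. Igha and Mzb1 were not searched. The E box and the XBP1 core share the letters ACGTG but no match was counted under both. Capitals mark the matched bases. Pigr (chr1:130826434-130826683, plus strand) holds the E box CACGTG, a site bound by USF factors, from base -71 to -66. Derl3 (chr10:75893148-75893397, plus strand) holds an E box from -168 to -163. It also holds, on the opposite strand from -156 to -138, the endoplasmic reticulum stress element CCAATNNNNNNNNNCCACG, a site of ATF6 and XBP1, of which only the fixed letters are in capitals. Eaf2 (chr16:36874827-36875076, minus strand, the first of its listed starts) holds the XBP1 core GACGTG from -149 to -144. The other listed starts of Eaf2 held no match.
Pigr: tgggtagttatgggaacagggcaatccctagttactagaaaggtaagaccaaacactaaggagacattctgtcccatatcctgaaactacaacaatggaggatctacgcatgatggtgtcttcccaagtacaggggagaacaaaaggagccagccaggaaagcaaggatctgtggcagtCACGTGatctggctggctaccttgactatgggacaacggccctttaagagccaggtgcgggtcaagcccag
Derl3: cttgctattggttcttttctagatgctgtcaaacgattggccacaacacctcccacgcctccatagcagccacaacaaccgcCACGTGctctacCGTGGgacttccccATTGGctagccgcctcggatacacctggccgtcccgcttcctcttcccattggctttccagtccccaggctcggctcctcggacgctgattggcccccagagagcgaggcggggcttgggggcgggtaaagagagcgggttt
Eaf2: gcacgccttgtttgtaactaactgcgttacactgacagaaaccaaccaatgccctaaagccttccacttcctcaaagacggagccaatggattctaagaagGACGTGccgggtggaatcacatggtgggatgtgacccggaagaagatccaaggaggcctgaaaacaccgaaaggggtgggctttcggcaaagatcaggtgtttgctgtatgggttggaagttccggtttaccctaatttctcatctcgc

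The E box was found in 6.05% of all promoters, the XBP1 core in 5.18% and the stress element in 0.122%. The interferon response type element GAAANNGAAA, in 3.04% of all promoters, was found in 0 of the 8 genes. These are matches of letters in a short window and no measure of binding.

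Igha encodes the constant region of the IgA heavy chain. Its brightest probe set, 1425763_x_at, read 10049 and 10227 on the female and the male control. It read 7068 and 8287 on female OVA 2 and 12, and 10535, 10116, 9889 and 10288 on male OVA 1, 5, 8 and 13. The 2 female OVA arrays were the lowest of all 8, and the 4 male OVA arrays lay around both controls. The means were 10138 ± 126 (SD, n = 2) in controls and 9364 ± 1378 (n = 6) under OVA. OVA minus control on the log2 scale came to -0.18 ± 0.12 (SE), with an adjusted p of 0.559. It was -0.0032 without female control 7, with males alone compared, and -0.39 without male control 8, with females alone compared. It was -0.11 without female OVA 2 and -0.0090 under quantile normalization, so its size is not settled.

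The other Igha probe sets were also lowest in OVA females. Probe set 1429381_x_at read 8142 and 8894 in controls, 6086 and 6890 in OVA females, and 8773, 8812, 7833 and 8785 in OVA males. Probe set 1421653_a_at read 8114 on both controls, 5204 and 6621 in OVA females, and 8453, 8633, 7904 and 8315 in OVA males. Both female OVA arrays were below the other 6 in all 3 probe sets. By the maker's naming, x_at sets hold probes that may match related transcripts, so other heavy chain messages may contribute to the x_at readings. The 3 probe sets name the same gene and are not independent readings. The log2 differences of 1429381_x_at and 1421653_a_at were -0.18 ± 0.11 and -0.19 ± 0.14.

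Jchain, the joining chain of dimeric IgA and of pentameric IgM, read 3288 and 3306 on the female and male control, 2616 and 2919 on female OVA 2 and 12, and 3362, 3822, 3719 and 3441 on male OVA 1, 5, 8 and 13. All 4 OVA males were above both controls and both OVA females below them. The means were 3297 ± 12.9 in controls and 3313 ± 466 under OVA. The log2 difference, which is adjusted for sex, was -0.05 ± 0.12, with an adjusted p of 0.876, and it was -0.0053 without that adjustment. It turned positive, at 0.12, without female control 7, when only males remained to carry the comparison, and was -0.25 without male control 8 and 0.0050 without female OVA 2.

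Pigr, the epithelial receptor that carries dimeric IgA into the lumen, had 2 probe sets. The brighter, 1455490_at, read 4442 and 4448 in controls, 3559 and 3464 in OVA females, and 4174, 4852, 4234 and 4473 in OVA males. The OVA females were again the lowest 2 arrays, and OVA males lay on both sides of the controls. The log2 difference was -0.16 ± 0.11, with an adjusted p of 0.587. It was -0.0073 without female control 7, -0.34 without male control 8 and -0.27 with both probe sets averaged.

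The dimmer Pigr probe set, 1450060_at, read 4212 and 4397 in controls, 2970 and 2798 in OVA females, and 3482, 3978, 3642 and 3866 in OVA males. All 6 OVA arrays were below both controls here, which the brighter probe set did not show. The means were 4305 ± 131 and 3456 ± 479, and the log2 difference was -0.38 ± 0.11, with an adjusted p of 0.389. Its unadjusted p of 0.00801 was the smallest of the 19 probe sets. Whether the probe sets read the same transcripts was not tested.

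By the brightest probe set, Igha, Jchain and Pigr were the 3 genes of the 10 for which both female OVA arrays lay below the other 6. Among dimmer probe sets 3 of Xbp1 and 1 of Sdc1 (1437279_x_at) had that order too. Over all genes this held for 7.67%, and the reverse, both above the other 6, for 4.77%, a pattern that 0 of the 10 genes had. Jchain and Pigr had a Pearson r of 0.86 and a Spearman rho of 0.71 over the 8 arrays (exact permutation p = 0.0116 and 0.0576). Igha and Jchain had r = 0.86 and rho = 0.52 (exact permutation p = 0.0147 and 0.197), and Igha and Pigr r = 0.84 and rho = 0.55 (exact permutation p = 0.0293 and 0.171). Among the 45 pairs of the 10 genes, 0 had an adjusted p of r under 0.05, and the adjusted values of these 3 were 0.166, 0.166 and 0.188. Without the 2 female OVA arrays the r of Igha was -0.48 with Jchain and -0.21 with Pigr, so both relations rest on those 2 mice. Jchain and Pigr had r = 0.71 without female OVA 2 and male OVA 5, the arrays farthest from the median of Jchain. That omission left the other female OVA array in, so it is not comparable with those for Igha. Whether the relation of Jchain with Pigr also rests on the female OVA mice was not tested.

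**Figure D2:**
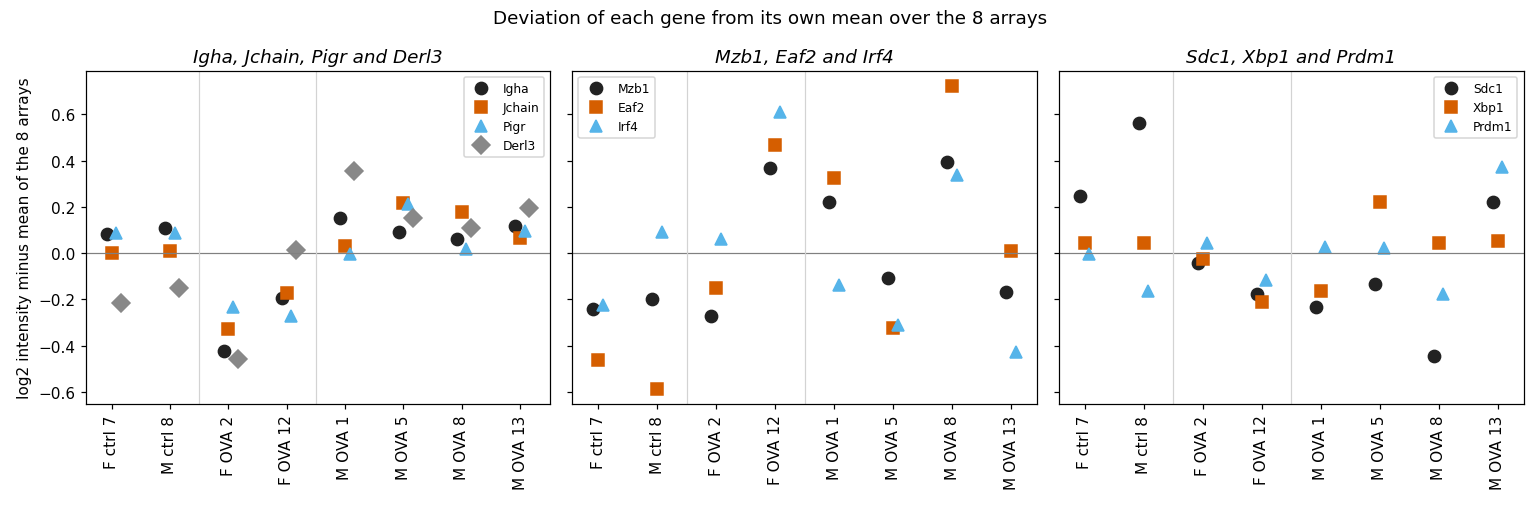
Log2 intensity of each of the 10 genes minus its own mean over the 8 arrays (vertical axis), with the arrays by group along the horizontal axis and the genes in 3 panels. Igha, Jchain and Pigr are lowest on the 2 female OVA arrays, and Mzb1 and Eaf2 are highest on female OVA 12 and male OVA 8.

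In the comparison of the sexes, 4 of the 10 genes had an unadjusted p under 0.05, namely Igha, Jchain, Pigr and Derl3, all lower in females, against 5.32% of all genes. After adjustment 12 of 22518 probe sets were called between the sexes (0.0533%), none of them for these genes. The log2 difference, female minus male, was -0.31 ± 0.11 for Igha, -0.27 ± 0.11 for Jchain, -0.24 ± 0.10 for Pigr and -0.33 ± 0.13 for Derl3, with an adjusted p of 0.901 for each. Among OVA arrays alone these were -0.41 ± 0.10, -0.37 ± 0.11, -0.33 ± 0.10 and -0.43 ± 0.15, with adjusted p from 0.332 to 0.458. The count of 4 was 2 without female OVA 12, male OVA 1 or male OVA 13, 1 without male OVA 5 and 0 without female OVA 2.

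The female control read 10049 for Igha against 10227 on the male control, and 4442 against 4448 for Pigr, in both cases above the OVA females. On Igha probe set 1429381_x_at it read 8142 against 8894. For Derl3 it read 70.6, under the male control and 5 of the 6 OVA arrays. The OVA effect in males minus that in females was 0.39 ± 0.20 on the log2 scale for Igha, 0.37 ± 0.20 for Jchain and 0.33 ± 0.20 for Pigr, with adjusted p of 0.658, 0.689 and 0.714. Of the 10 genes, 0 had an unadjusted p under 0.05 for this difference, against 7.09% of all genes, and 0 of 22518 probe sets were called (0%). The count of 0 was 2 without female OVA 12 and 1 without male OVA 8. Each sex had a single control, so a low reading of OVA females cannot be told apart from the particular 2 mice.

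Sdc1 encodes syndecan-1 (CD138), a heparan sulfate proteoglycan that marks plasma cells and that gut epithelium also carries. Its brightest probe set, 1415943_at, read 229 and 286 in controls, 187 and 169 in OVA females, and 163, 175, 140 and 225 in OVA males. All 6 OVA arrays were below both controls, though male OVA 13 came close to the female control. By the brightest probe set Sdc1 was the single gene of the 10 with this order, which 4.65% of all genes had, though the dimmer Pigr probe set had it too. The means were 257.5 ± 40.6 and 176 ± 28.3, and the log2 difference was -0.55 ± 0.17, with an adjusted p of 0.396. The difference was -0.61 without male OVA 13, -0.71 without female control 7, -0.36 ± 0.25 without male control 8 and -0.30 ± 0.14 with all 4 probe sets averaged.

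The other 3 Sdc1 probe sets also had fitted differences below 0, of smaller size. Probe set 1415944_at read 89.5 and 123 in controls and 62.5 to 94.6 under OVA, with a log2 difference of -0.47 ± 0.17 and an adjusted p of 0.412. Probe set 1437279_x_at differed by -0.15 ± 0.10, and the dim 1448158_at, between 16.1 and 24.2 on all arrays, by -0.03 ± 0.17.

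Mzb1, a chaperone of the endoplasmic reticulum in marginal zone B cells and plasma cells that helps assemble antibody, read 1027 and 1060 in controls, 1006 and 1570 in OVA females, and 1416, 1129, 1599 and 1082 in OVA males. Female OVA 12 and male OVA 8 were the highest, and female OVA 2 lay below both controls. OVA minus control was 0.29 ± 0.20 on the log2 scale, with an adjusted p of 0.583, and 0.16 without female OVA 12.

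Irf4, a transcription factor that at rising dose turns activated B cells towards plasma cells, read 107 and 134 in controls, 131 and 194 in OVA females, and 113, 100.0, 160 and 91.8 in OVA males. The groups overlapped, with the highest readings on female OVA 12 and male OVA 8. On the log2 scale OVA minus control was 0.13 ± 0.25, with an adjusted p of 0.851. It was -0.23 without female control 7, 0.56 without male control 8 and -0.031 without female OVA 12. The second probe set stayed under the filter, between 5.84 and 7.81.

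Prdm1 encodes Blimp-1, the repressor that ends the B cell programme, and is also active in T cells. It read 41.0 and 36.3 in controls, 42.6 and 37.6 in OVA females, and 42.1, 41.9, 35.9 and 54.7 in OVA males. The groups overlapped, and male OVA 13, the array with the pancreas markers, was the highest. The log2 difference was 0.11 ± 0.15, with an adjusted p of 0.789. It was 0.048 without male OVA 13, 0.22 without female control 7 and -0.032 without male control 8.

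Xbp1, the factor that expands the secretory apparatus of plasma cells and of secretory epithelium, read 1840 on both controls with probe set 1420886_a_at. It read 1758 and 1541 in OVA females and 1597, 2082, 1840 and 1855 in OVA males, so that male OVA 8 equalled the controls. The log2 difference was -0.07 ± 0.12, with an adjusted p of 0.821, and ranged from -0.16 to -0.0036 when each array was left out. Its 3 other probe sets differed by -0.01, -0.04 and 0.03, and in each of these both OVA females were the lowest arrays.

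Derl3 belongs to the machinery that draws misfolded proteins out of the endoplasmic reticulum for degradation and is a target of XBP1. It read 70.6 and 74.2 in controls, 59.0 and 83.6 in OVA females, and 107, 92.7, 89.6 and 95.4 in OVA males. On 5 of the 6 OVA arrays it was above both controls, and on female OVA 2 below them. The log2 difference was 0.19 ± 0.15, with an adjusted p of 0.624. It was 0.35 without female control 7, -0.01 without male control 8, 0.30 without female OVA 2 and 0.12 without female OVA 12.

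Eaf2, a partner of the ELL elongation factors that is abundant in germinal centre B cells, read 66.1 and 60.3 in controls, 83.3 and 130.2 in OVA females, and 118, 73.3, 157 and 93.5 in OVA males. All 6 OVA arrays were above both controls, an order that 7.99% of all genes had and that Eaf2 alone had among the 10. The means were 63.2 ± 4.12 and 109 ± 31.5. The log2 difference was 0.70 ± 0.27, the largest of the 10, with an adjusted p of 0.413. It ranged from 0.59 to 0.83 when each array was left out.

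**Figure D3:**
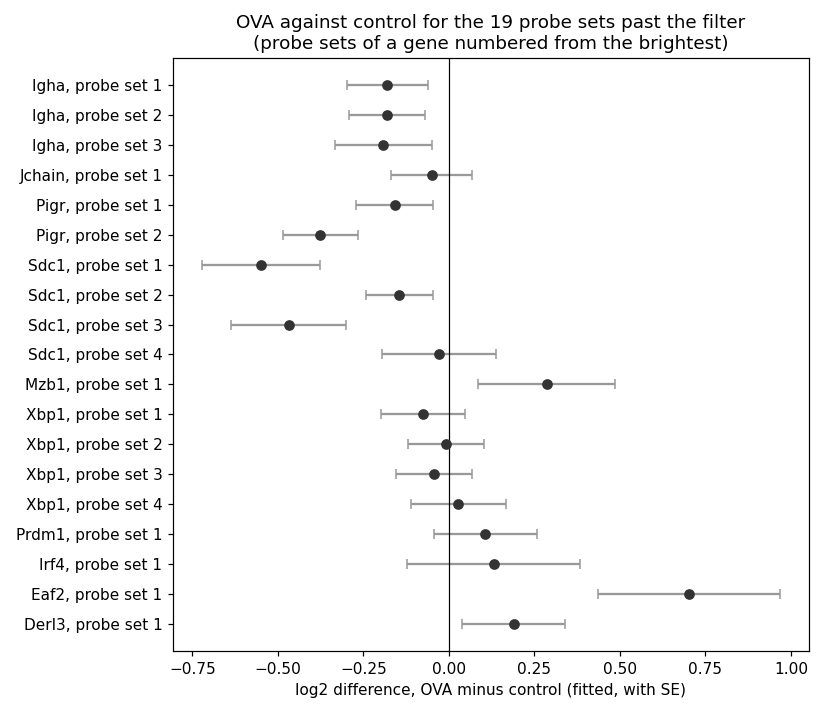
Log2 difference, OVA minus control, with its standard error (horizontal axis) for each probe set of the 10 genes past the filter. Sdc1 lies farthest below 0 at -0.55 and Eaf2 farthest above at 0.70, and no probe set passed the adjusted threshold.

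Marker levels of epithelium and B cells varied between arrays. A score of 16 epithelial genes (mean log2 intensity) was 10.42 and 10.49 in controls, 10.36 and 10.13 in OVA females and 10.21, 10.16, 9.87 and 10.42 in OVA males. A score of 13 B cell genes was 7.90 and 7.78 in controls, 8.13 and 8.84 in OVA females, and 8.25, 8.07, 8.88 and 7.85 in OVA males. Male OVA 8 was lowest for epithelium and highest for B cells, with female OVA 12 next for both. Male OVA 13 lay between the controls on both scores.

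Of the 16 relations of members with these scores, 2 passed an adjusted p of 0.05 on Pearson's r. Sdc1 went with the epithelium score across arrays, with r = 0.91 and rho = 0.90 (exact permutation p = 0.00248 and 0.00456, adjusted 0.0198 and 0.0365). The r was 0.89 without male control 8 and male OVA 8, and 0.92 among OVA arrays. Its adjusted p was 0.0746 without female control 7 and 0.0968 without male OVA 8. Eaf2 went with the B cell score, with r = 0.88 and rho = 0.86 (exact permutation p = 0.00246 and 0.0107, adjusted 0.0198 and 0.0571). That r was 0.69 without female OVA 12 and male OVA 8, and 0.84 among OVA arrays. The adjusted p of Eaf2 was above 0.05 when any of 5 arrays was left out, namely female control 7 (0.0746), male control 8 (0.0667), female OVA 2 (0.0556), male OVA 1 (0.0593) and male OVA 8 (0.0968).

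The relations of Igha, Jchain and Pigr with the scores did not pass the test. Pigr, although an epithelial gene, had by its brighter probe set r = 0.15 and rho = 0.40 with the epithelium score (exact permutation p = 0.730 and 0.327). The relation of its dimmer probe set with the scores was not taken. Igha had r = -0.28 and rho = -0.45 with the B cell score (exact permutation p = 0.572 and 0.267), and Jchain r = -0.04 and rho = 0 (exact permutation p = 0.943 and 1). Irf4 had r = 0.79 and rho = 0.57 with the B cell score (exact permutation p = 0.0197 and 0.151, adjusted 0.0632 and 0.403), and r = 0.08 without female OVA 12 and male OVA 8, so that relation rests on them.

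**Figure D4:**
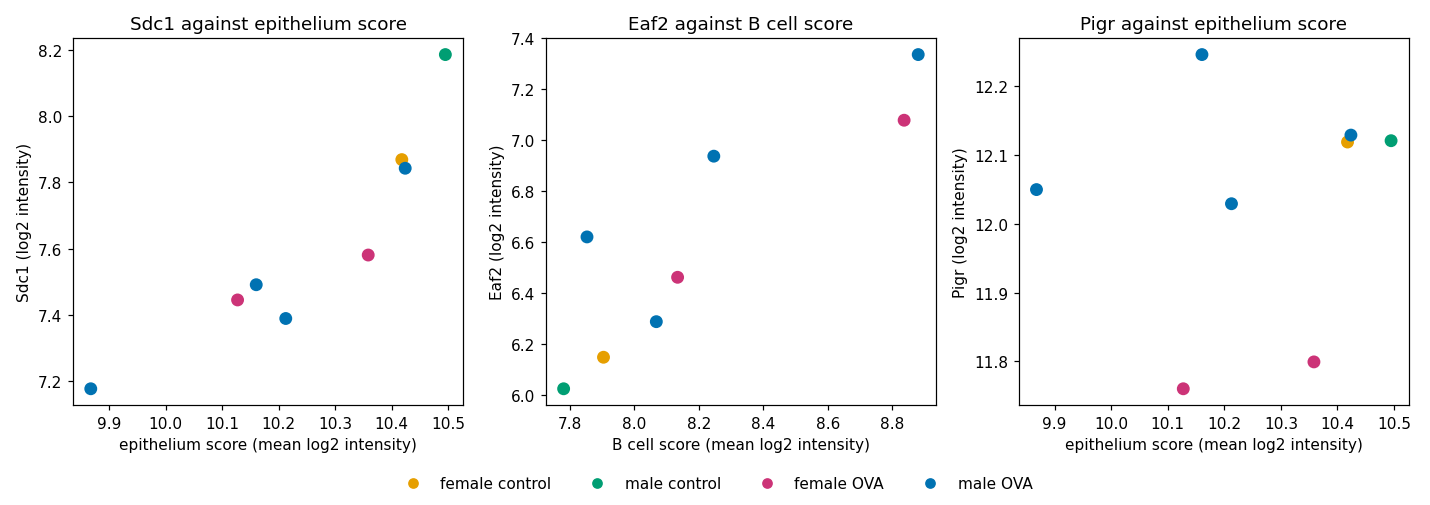
Log2 intensity of Sdc1, Eaf2 and Pigr (vertical axes) against the epithelium or B cell score (horizontal axes, mean log2 intensity), with 1 point per array coloured by group. Sdc1 lines up with the epithelium score (r = 0.91) and Eaf2 with the B cell score (r = 0.88). Pigr, by its brighter probe set, is scattered against the epithelium score (r = 0.15).

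Set against the epithelium or the B cell score, no member passed an adjusted p of 0.05 over the 8 differences taken. With 28 splits into 2 and 6 arrays, 0.0357 is the smallest p that can be reached. A lone member at that p could not pass adjustment over 8, so the lack of a call carries no weight. Whether a member's message comes from the cells of its score was not tested. Sdc1 minus the epithelium score differed by -0.27, with all 6 OVA arrays below both controls, and Prdm1 minus that score by 0.38, with all 6 above (both with exact permutation p = 0.0357, adjusted 0.143). The Sdc1 value was -0.15 without male control 8 and -0.39 without female control 7. Pigr minus the epithelium score, by the brighter Pigr probe set, differed by 0.15 (exact permutation p = 0.571). The dimmer Pigr probe set, with the larger OVA difference of -0.38, was not set against that score. Xbp1 minus the epithelium score differed by 0.21 (exact permutation p = 0.25). The epithelial genes themselves had a median log2 difference of -0.22, which enters these 4 values. Sdc1, Prdm1, Pigr and Xbp1 alone differed by -0.55, 0.11, -0.16 and -0.07 in the limma fit. Igha minus the B cell score was -0.62 (exact permutation p = 0.179, adjusted 0.333), with 5 of 6 OVA arrays below both controls, and Jchain minus that score -0.50 (exact permutation p = 0.25, adjusted 0.333). The B cell genes themselves had a median log2 difference of 0.53, which enters both values, and no plasma cell score was taken. Eaf2 minus the B cell score differed by 0.20 (exact permutation p = 0.321). Irf4 minus the B cell score differed by -0.41 (exact permutation p = 0.0714, adjusted 0.190), with 5 of 6 OVA arrays below both controls, and by -0.19 without male control 8 and -0.63 without female control 7.

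Genes of other immunoglobulin and receptor chains, and the chain-like Vpreb3, were on the higher side under OVA. The values of Igha were not, though no test of that contrast was made. Of 15 listed genes 5 passed the filter, all 5 were higher, their median log2 difference was 0.62, and 0 passed adjustment. Ighm, the IgM heavy chain that B cells carry before switching, averaged 2544 ± 657 in controls and 3668 ± 787 under OVA, a log2 difference of 0.56 ± 0.22 with an adjusted p of 0.421. Vpreb3, a chain-like protein of B cells, went from 123 ± 27.1 to 229 ± 70.5, a difference of 0.89 ± 0.27. Cd79b, a signalling chain of the receptor, differed by 0.62 ± 0.29. The B cell list had 13 of 13 measured genes higher, with a median of 0.53 and 0 past adjustment. It shares Cd79a and Cd79b with the list above, and of all 11988 genes 6433 were higher. Fcrla, Ebf1 and Blnk differed by 0.92 ± 0.29, 0.58 ± 0.22 and 0.59 ± 0.24.

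Of 20 further plasma cell genes 18 were measured, 12 higher and 6 lower, with a median of 0.073 and 0 past adjustment. The median was 0.028 without male control 8. Slamf7, a surface receptor of plasma cells, differed by 0.51 ± 0.19. Pou2af1, a B cell coactivator, differed by 0.60 ± 0.29, and Txndc5, a protein disulfide isomerase, by -0.28 ± 0.10. Of 10 B cell genes that Prdm1 represses 9 were higher and 1 lower, with a median of 0.46 and 0 past adjustment, and Spib, Ets1 and Bcl6 differed by 0.58 ± 0.26, 0.57 ± 0.27 and 0.55 ± 0.27. The lower one was Id3, an inhibitor of E proteins, at -0.19 ± 0.11. The B cell score was also higher under OVA on 5 of the 6 arrays than on both controls, and its part in these values was not tested.

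Of 38 secretory pathway genes downstream of Xbp1 36 were measured, 21 higher and 15 lower, with a median of 0.05 and 0 past adjustment. Edem1, which hands misfolded glycoproteins to degradation, averaged 435 ± 39.9 in controls and 355 ± 26.2 under OVA (log2 difference -0.32 ± 0.09). Sec11c, a subunit of the signal peptidase, and Hsp90b1, the chaperone GRP94, differed by 0.36 ± 0.14 and 0.25 ± 0.10. The split turned to 12 higher and 24 lower, with a median of -0.06, without male control 8, and to 28 higher and 8 lower, with a median of 0.11, without female control 7. The median was 0.033 without male OVA 5, and the direction of this list depends on 1 control.

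Of 34 genes of IgA induction and homing 25 were measured, 17 higher and 8 lower, with a median of 0.20 and 0 past adjustment. The median was 0.11 without female control 7 or female OVA 12, 0.14 without male OVA 8 and 0.33 without male control 8. Il21r, the receptor of interleukin-21, averaged 37.2 ± 1.93 in controls and 60.3 ± 15.8 under OVA (0.65 ± 0.22). Tnfrsf13c, the BAFF receptor, and Cxcr4, a chemokine receptor of B cells and plasma cells, differed by 0.81 ± 0.31 and 0.81 ± 0.32. On the lower side Aldh1a2, which makes the retinoic acid that favours gut homing and IgA, differed by -0.41 ± 0.17.

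Of 23 inducers and regulators of Pigr 16 were measured, 7 higher and 9 lower, with a median of -0.02 and 0 past adjustment. Irf1, the interferon-induced factor that drives Pigr in human epithelial cells, averaged 690 ± 124 in controls and 499 ± 56.3 under OVA, with all 6 OVA arrays below both controls (-0.46 ± 0.15, adjusted p 0.409). Tlr3, a receptor of double-stranded RNA, and Tnfrsf1a, a receptor of tumour necrosis factor, were likewise below both controls on all 6 OVA arrays, with differences of -0.43 ± 0.16 and -0.26 ± 0.12. Those 3 of 16 genes stand beside 4.65% of all genes with that order. On the higher side Il17ra, a receptor subunit of interleukin-17, differed by 0.28 ± 0.20. Without female control 7, with males alone compared, the split of the list was 3 higher and 13 lower. Without male control 8, with females alone compared, it was 10 higher and 6 lower. The epithelium list had 16 of 16 genes lower, with a median of -0.22 and 0 past adjustment, and Elf3, Cdx1 and Cdx2, regulators of intestinal epithelium, differed by -0.55 ± 0.17, -0.47 ± 0.18 and -0.40 ± 0.16.

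**Figure D5:**
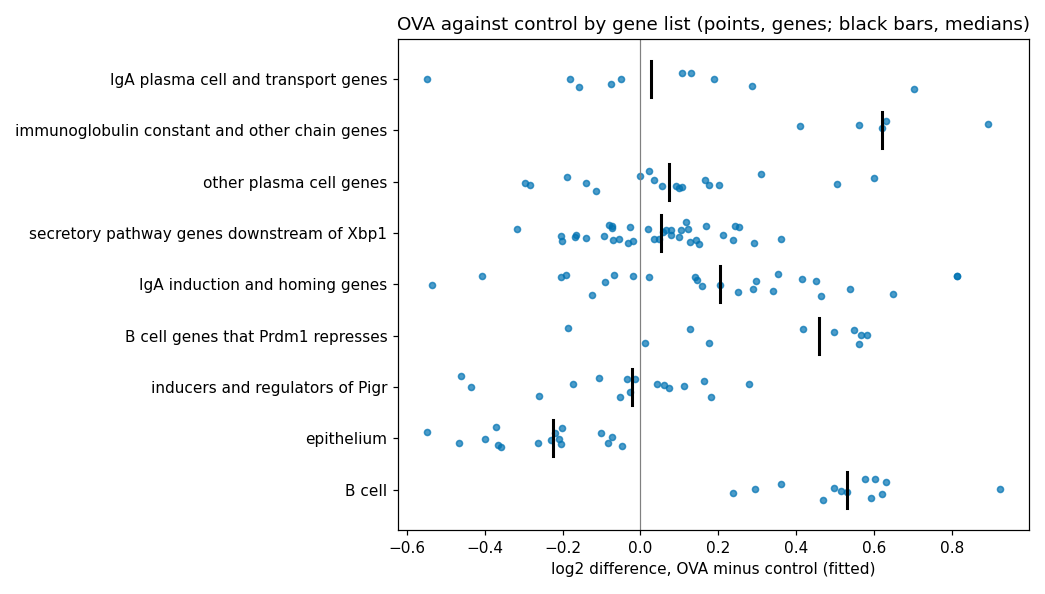
Log2 difference, OVA minus control (horizontal axis), of every measured gene in each list (rows), with the median of each list marked. The lists of immunoglobulin and other chains and of B cells lie above 0 (medians 0.62 and 0.53). The epithelium list lies below (-0.22), and the 10 IgA genes around 0 (0.03).

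The genes whose log2 intensity followed a member most closely over the 8 arrays are named as a description, by Pearson's r among 11988 genes. They are the extremes of that many values over 8 arrays, and none was tested. Some were dim, such as Ushbp1 at 10.2 to 13.1, near the filter. For Igha these were Ppm1h, Wdr11, Cryzl1, Uevld and Ushbp1 (r 0.96 each), and the most opposed were Tent2, Bpnt2 and Ankrd28 (r from -0.97 to -0.94). For Jchain they were Oma1, Herc2, Atf2, Lrat and Shtn1, with r from 0.97 to 0.996, and Ascl2, Mdrl and Thap7 were opposed (-0.98 to -0.95). For Pigr they were Bche, Abhd4, Slc6a20a, Ogdh and Cpt2 (0.98 to 0.99), with Cxcl11, BC002059 and Zfp944 opposed (-0.98 to -0.97). Slc6a20a is an amino acid carrier of enterocytes, and Ogdh and Cpt2 are mitochondrial enzymes. Xbp1 went with Tex2, Ssx2ip, Mob3b, Acot2 and Mal2 (0.92 to 0.95) and against Psmb1, B3gntl1 and Rpl39 (-0.95 to -0.94). Eaf2 went with Tmem189, Basp1, Hmces, Rfc2 and Frg1 (0.97 to 0.98) and against Ubr3, Hnrnpll and Lama5 (-0.98 to -0.97).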

How the data were processed

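RNA of 8 Peyer's patch samples was measured on Affymetrix arrays, 1 array per mouse. The deposited files hold linear probe set intensities, made with MAS5 per the submitters' processing notes. Its version and settings were not given in the sources used here. Equal values on 2 or more arrays were held by 23229 of the 45101 probe sets (51.5%), so the summarising step was not settled and intensities were used as deposited. No array batch or scan time was available.

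Intensities were taken to log2(value + 4.88), the 25th percentile of all values, without further scaling. Fold differences are on that scale, which understates those of dim probe sets. The 64 control probe sets were left out, and the 22518 above an intensity of 11.9 were tested. The annotation paired 34958 probe sets with 1 symbol, 932 with several and 9211 with none. Of the 34958, 34754 matched the reference gene table by identifier, which updated 0 symbols. Where several probe sets named a gene alone, the brightest past the filter stood for it.

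Treatment (OVA against control) and sex (female against male) were terms of 1 additive fit to all 8 arrays (lmFit and eBayes, limma 3.58.1, R 4.3.3), two-sided, with Benjamini-Hochberg adjustment over all probe sets tested at 0.05. The difference in OVA effect between the sexes was taken from a fit of 4 group means, where the lone control of each sex is taken to vary as much as other arrays do. Residual degrees of freedom were 5 and 4. Scores are mean log2 intensities, and single values were tested by two-sided exact permutation over 28 splits or 40320 pairings. The fits were tested on simulated data. Tables, motif searches and figures used matplotlib 3.10.9, SciPy 1.17.1, pandas 2.3.3 and NumPy 2.4.6 under Python 3.11.15.

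The 10 genes and all lists were chosen with earlier results of these data known. Named were the 10 genes, from each other list the 3 genes of smallest p and the one of smallest p on each side, and for 5 of the 10 genes the 5 most alike and 3 most opposed genes. Alternatives tried were 1 or the median intensity as pseudocount, quantile normalization, median centring, array weights, no covariate, a variance trend with robust estimation, no filter or one at the 75th percentile, averaging a gene's probe sets, the sexes within OVA arrays, and leaving out each array in turn. For the sexes, for the difference between them and for the counts of the lists, these alternatives were chosen after seeing the data.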

Additional observations from a re-analysis of the deposited data

Results flagged for a closer look

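Of 38 tests for a single array far from the others of its group, 3 found one, and chance alone gives about 1 in 20. The Igha probe set 1429381_x_at read 7833 on male OVA 8, well under the other 3 male OVA arrays, at a gap of 0.960 of the group's range. The Sdc1 probe set 1437279_x_at read 110.2 on male OVA 13, above the other OVA arrays, at a gap of 0.640. Prdm1 read 54.7 on male OVA 13, above the other OVA arrays, at a gap of 0.644. Male OVA 13 is the array with high exocrine pancreas markers, whose part in these readings was not tested.

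For 3 of the 19 probe sets both OVA females lay below the female control while all 4 OVA males lay above the male control. The share of all probe sets with this order was not counted, so the 3 cannot be called unusual. The OVA effect in males minus that in females was 0.37 on the log2 scale for Jchain (limma adjusted p 0.689), 0.38 for Xbp1 probe set 1437223_s_at (0.641) and 0.41 for Xbp1 probe set 1420012_at (0.717), so none of the 3 differences passed the test.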

How the results depend on the processing

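The count of probe sets called for OVA against control was 0 under every alternative. The number of the 10 genes at an unadjusted p under 0.05 for OVA (2) was 1 with array weights and 1 to 3 when each array was left out. For the sexes (4) it was 2 with median centring and 0 to 4 leaving out arrays. For the difference between the sexes (0) it was 1 with no filter, 1 with array weights and 0 to 2 leaving out arrays. The 12 probe sets called between the sexes were 4 with the filter at the 75th percentile, 5 with a gene's probe sets averaged, and 9 to 13 leaving out arrays. The 2 relations with scores were 0 to 4. Female minus male was 0.025 (array weights) and 0.038 (OVA arrays alone) for Sdc1, and -0.15 and -0.025 for Eaf2. The r of Igha with epithelium was -0.51 under quantile normalization. The cause of these moves was not tested.

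Leaving out arrays, OVA minus control ranged from -0.39 to -0.0032 for Igha, -0.34 to -0.0073 for Pigr, -0.71 to -0.36 for Sdc1, -0.25 to 0.12 for Jchain, -0.23 to 0.56 for Irf4, -0.032 to 0.22 for Prdm1 and -0.0065 to 0.35 for Derl3. Both ends of each of these ranges came from the fits without a control, which compared males alone or females alone. Female minus male ranged from -0.14 to 0.038 for Sdc1, -0.16 to 0.22 for Eaf2, -0.24 to 0.16 for Mzb1, -0.098 to 0.050 for Prdm1 and -0.00099 to 0.47 for Irf4. The r with epithelium ranged from -0.11 to 0.33 for Igha, -0.028 to 0.31 for Pigr and -0.077 to 0.31 for Xbp1, and that of Jchain with B cells from -0.41 to 0.26. Under the other alternatives each member with a value kept the direction of its OVA difference, down to -0.0090 for Igha under quantile normalization, and Prdm1 had no value with the filter at the 75th percentile. No paired analysis was possible because no label pairs a control mouse with an OVA mouse. Male control 8 and male OVA 8 are separate samples that share a number. With 2 controls, 1 of each sex, the error of every OVA difference leans on the spread of the OVA arrays, and with no detection calls the signal of dim genes such as Prdm1 over background is unknown.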

Other observations

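Of the remaining pairs among the 10 genes, Mzb1 and Eaf2 had the highest r, 0.90, with rho = 0.79 (exact permutation p = 0.00379 and 0.0279, adjusted 0.166 and 0.264 over 45 pairs), and r = 0.74 without female OVA 12 and male OVA 8. Pigr and Xbp1 had r = 0.78 and rho = 0.95 (exact permutation p = 0.0244 and 0.00119, adjusted 0.188 and 0.0536), and r = 0.89 without the 2 female OVA arrays. Prdm1 and Irf4, which act one after the other in plasma cell formation, had r = -0.74 and rho = -0.71 (exact permutation p = 0.0335 and 0.0576, adjusted 0.189 and 0.264), and r = -0.64 without male OVA 8 and male OVA 13. Sdc1 and Eaf2 had r = -0.83 and rho = -0.88 (exact permutation p = 0.0117 and 0.00724, adjusted 0.166 and 0.163), and r = -0.60 without male control 8 and male OVA 8. None of these passed adjustment.

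The scores of other cell types also differed between arrays. The germinal centre score was 6.70 and 6.40 in controls and 6.75 to 8.00 under OVA, with male OVA 8 highest. All 6 OVA arrays were above both controls, an order that 7.99% of all genes had. The margin was narrow, with 6.75 on male OVA 13 against 6.70 on female control 7. Of the genes in this score, S1pr2 and Bcl6 overlapped between the groups, and Mef2b and Rgs13 did not. The goblet cell score was 11.22 and 11.45 in controls and 10.54 to 11.32 under OVA, and the Paneth cell score 11.30 and 11.25 in controls and 10.26 to 11.40 under OVA, both lowest on male OVA 8. The ratio of 3′ to 5′ Actb signal, a sign of RNA quality, was 1.43 and 1.54 in controls and 1.29 to 1.58 under OVA. The part of these in the values of the 10 genes was not tested.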
